A study of Mus musculus with 7 samples.

Results

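The genes described here are 36 genes of glycolysis, the pentose phosphate pathway and pyruvate handling, of 54838 genes in a table of RNA counts from 7 mouse pluripotent cultures. They were chosen by name, from glucose uptake to the entry of pyruvate into mitochondria, and all 36 were found through their Ensembl identifiers. Aldoa has a second row in the table, for an upstream gene model with 45 to 117 counts a library, which is not used here, so the 36 genes take 37 rows. V6.5, an established line of embryonic stem cells (ESC), gave 1 library, and colonies of induced pluripotent stem cells (iPSC) made from germinal center (GC) B cells gave 6. Those B cells came from spleens of male mice 9 days after immunization with SRBC and were sorted as B220+ CD38- Fas+, either in bulk or by an endogenous Myc-GFP reporter that picks out those activated by T follicular helper (TFH) cells. Both sources spent 6 days on a feeder layer of mouse embryonic fibroblasts (MEF) with cytokines, were reprogrammed for 10 days with doxycycline (Dox), and were kept 4 more days without it. Then 3 colonies a source were picked, each a clone, passaged once on gelatin alone and freed of MEF by a pre-plating step of 45 min. All cultures were grown in KO-DMEM with FBS and LIF. Colonies titled GC are the bulk source; those titled M are read as the Myc-GFP source, which the titles do not spell out. The labels tie no colony to a mouse, so p-values measure the spread between colonies, and the ESC library has no replicate.

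Glycolysis splits glucose into pyruvate and yields ATP without oxygen, while the pentose phosphate pathway draws off glucose 6-phosphate to make NADPH and the ribose of nucleotides. Pyruvate is then reduced to lactate, which leaves the cell, or carried into mitochondria and turned into acetyl-CoA by the pyruvate dehydrogenase complex. Pluripotent cells in culture are known for a high flux of glucose to lactate. Most steps are served by several isozymes from separate genes that differ in kinetics and tissue, so the amount of a step's RNA and its split over isozymes are separate quantities.

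Library totals ran from 31139508 to 35728921 counts, and a count of 0 would allow up to 3 counts, 0.0840 to 0.0963 CPM (counts scaled to a common library size), for counting error only. The members took 3.62% of all counts in the ESC library, 3.06% to 3.31% in the GC colonies and 3.08% to 3.27% in the M colonies. M colonies 2 and 3 stood apart: protein-coding genes of the Y chromosome had 24 and 14 counts there, against 5505 to 13008 in the other 5 libraries. Member calls that involve M colonies are therefore also given without them, singly, as counts or as log2 differences. The same holds for calls of pathway, hypoxia and regulator genes between the sources. Calls of markers, and of list genes against ESC, are given with all colonies only. Fits without M colonies 2 and 3 leave 1 M colony, so the spread comes from the 3 GC colonies alone. A call that ends or stays there rests on M colony 1 without a replicate. GC colony 3 stood apart in processed pseudogenes, which took 0.583% of its counts against 0.656% to 0.818% elsewhere. The 12 pluripotency markers listed summed to 7748 CPM in the ESC library and 5042 to 5497 CPM in the colonies. The 12 B cell markers summed to 7.89 to 10.8 CPM in every library, with Blk at 0 throughout.

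All 36 members were detected in all 7 libraries and passed the filter on low counts in every comparison. Per length, as CPM per kb of merged exons, Gapdh led with 1308 ± 81.4 (SD, n = 3) in GC and 1291 ± 29.7 (n = 3) in M colonies. In mean level over the 6 colonies it was followed by Aldoa (978.5), Pkm (883), Pgk1 (785), Eno1 (753) and Ldha (742 CPM per kb). They encode aldolase, enzymes of the ATP-yielding phase of glycolysis and the A subunit of lactate dehydrogenase. The glucose transporters Slc2a1 and Slc2a3 stood at 342.5 and 339.9 CPM per kb, close to Tpi1, triose phosphate isomerase, at 343, and the colonies overlapped among these 3 genes. At the low end were Pdk2, a pyruvate dehydrogenase kinase, at 3.66, the neuronal enolase Eno2 at 2.604, the mitochondrial pyruvate carrier genes Mpc2 and Mpc1 at 1.87 and 1.55, and Pfkfb4 at 0.890 CPM per kb. The order depends on the length used. Merged exons of Eno1 span 5379 bases and its longest transcript 2027, against 4133 and 3289 for Gapdh. By longest transcript, Eno1, Aldoa and Pkm would stand above Gapdh, and Tpi1 above both glucose transporters. Levels of the members thus spanned 3 orders of magnitude within 1 pathway, as the plot of level per length shows.

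**Figure D1:**
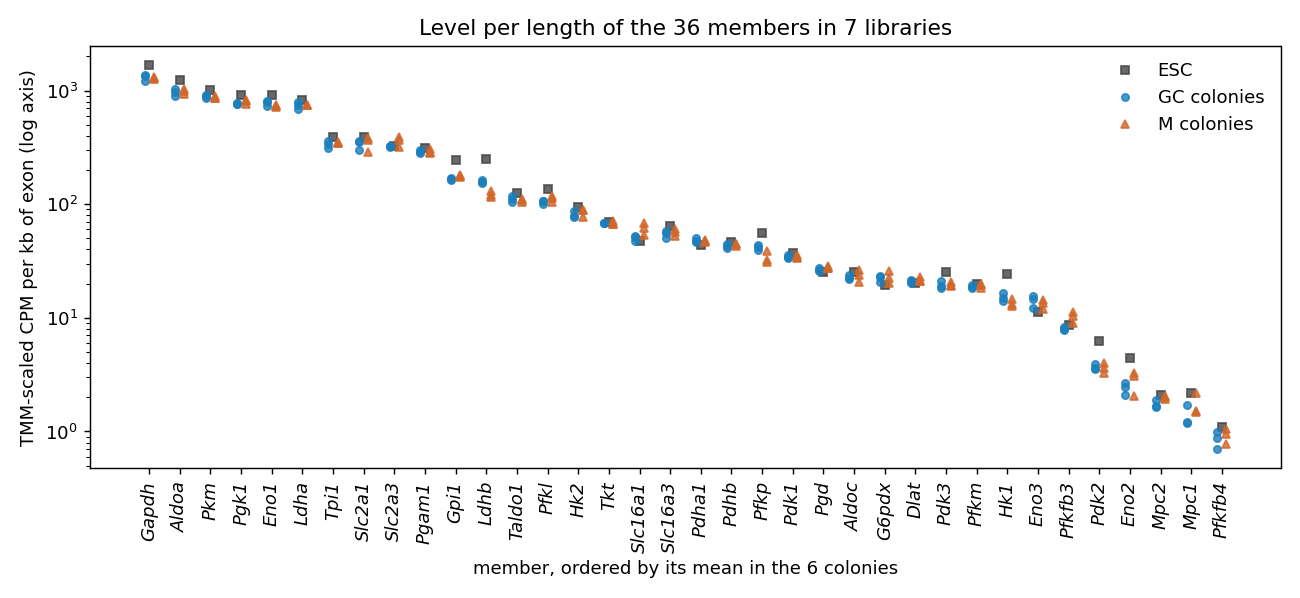
Level per length (TMM-scaled CPM per kb of exon, log axis) of the 36 members, ordered by their mean in the 6 colonies; each point is 1 library (squares ESC, circles GC colonies, triangles M colonies). Gapdh is at the top with a colony mean of 1299 and Pfkfb4 at the bottom with 0.890; points of 1 gene lie close together beside the distance between genes.

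The comparison of M with GC colonies asks whether pluripotent cells derived from Myc-GFP GC B cells differ from those derived from bulk GC B cells. Of the 36 members, 1 was higher in M colonies (Pfkfb3, which activates glycolysis) and 2 were lower (Ldhb, a lactate dehydrogenase subunit, and Pfkp, a phosphofructokinase), at an adjusted p under 0.05 in edgeR's quasi-likelihood test over 18166 genes. Over all genes tested, 1.7% were called higher and 2.27% lower, so the members' counts lie near the background. Both directions together made 3.97%, and among genes with a mean of 50 CPM or more the shares were 2.51% higher and 2.2% lower. The median log2 difference, M minus GC, was 0.035 over the members and 0.003 over all genes, and the summed level of the members was 31769 ± 1254 CPM (SD, n = 3) in GC and 31904 ± 940.2 CPM (n = 3) in M colonies. The 3 M and 3 GC colonies did not overlap in 6 members: Gpi1, Slc16a1, Mpc2 and Pfkfb3 were above, Ldhb and Pfkp below. Across all genes 22.1% had such non-overlapping ranges, 10.1% above and 12% below. With M colonies 2 and 3 left out, 0 members were called higher and 1 lower (Pfkp, log2 -0.45, adjusted p = 0.0358).

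Lactate dehydrogenase is a tetramer of A and B subunits, encoded by Ldha and Ldhb; the A form is the one known for making lactate, and the B form is typical of heart. Ldhb had 255, 244 and 242 CPM in the 3 GC colonies, 204, 183 and 189 CPM in the 3 M colonies and 394 CPM in the ESC library. Every M colony lay below every GC colony, and every GC colony below the ESC library. The means were 247 ± 6.94 CPM (SD, n = 3) in GC and 192 ± 10.6 CPM (n = 3) in M, a log2 difference of -0.37 (SE 0.061, edgeR adjusted p = 0.00468). The call held in each of the 6 fits without 1 colony, with adjusted p up to 0.0396, and ended without M colonies 2 and 3 together (log2 -0.28, adjusted p = 0.209). Ldha had 2609, 2474 and 2264 CPM in GC and 2449, 2476 and 2464 CPM in M colonies. Its groups overlapped, with a log2 difference of 0.005 (SE 0.055, edgeR adjusted p = 0.978). The Ldhb share of the Ldha and Ldhb level per length was 17.6% ± 0.733 (SD, n = 3) in GC, 14.1% ± 0.730 (n = 3) in M and 23.2% in the ESC library.

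The promoter of Ldhb is set beside that of Ldha because the 2 genes share the tetramer and only Ldhb was called; Ldha was added after its values were seen. The windows run from 250 bases before to 50 after a transcript start, from RefSeq on GRCm38.p6, written 5′ to 3′ on the gene's strand. Capitals mark ACGTG on either strand (read as CACGT on the other), a form of the core of the hypoxia response element. The form GCGTG was not searched or marked, so 0 matches does not mean that the core is absent. CACGTG, the E-box bound by Myc and its partners, holds ACGTG and is in capitals too. The Ldha window is chr7:46845554-46845853 (+) and the Ldhb window chr6:142507908-142508207 (-).
Ldha: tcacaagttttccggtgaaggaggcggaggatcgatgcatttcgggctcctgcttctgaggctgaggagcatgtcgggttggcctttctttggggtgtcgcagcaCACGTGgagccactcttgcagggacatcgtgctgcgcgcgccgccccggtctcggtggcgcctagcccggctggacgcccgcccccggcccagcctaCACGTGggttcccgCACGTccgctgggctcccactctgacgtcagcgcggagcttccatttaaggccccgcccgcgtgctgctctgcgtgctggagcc
Ldhb: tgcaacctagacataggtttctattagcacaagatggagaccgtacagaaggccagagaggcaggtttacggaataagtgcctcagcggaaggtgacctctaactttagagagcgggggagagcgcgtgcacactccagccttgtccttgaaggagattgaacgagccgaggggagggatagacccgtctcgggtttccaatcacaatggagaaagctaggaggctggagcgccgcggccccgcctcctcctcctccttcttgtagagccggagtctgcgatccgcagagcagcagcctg
The Ldha window holds 3 such matches, of which 2 are CACGTG, and the Ldhb window holds 0. A second Ldha start, at chr7:46846832-46847131, holds 0. Of 32851 RefSeq promoter windows of this length, 19.6% hold ACGTG on either strand and 7.15% hold CACGTG. Among the members, 35 genes were matched, with 51 windows, and ACGTG was in 21 windows (41.2%) from 18 genes and CACGTG in 5 windows (9.80%). Slc2a3 has no entry. A match describes the letters and shows no binding.

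Phosphofructokinase commits sugar to glycolysis and is built from liver (Pfkl), muscle (Pfkm) and platelet (Pfkp) subunits. Pfkp had 529.6, 568 and 589 CPM in the GC colonies, 413, 517 and 432 CPM in the M colonies and 749.8 CPM in the ESC library. The M colonies were all below the GC colonies, with M colony 2 nearest to them. The means of 562 ± 30.2 CPM (SD, n = 3) in GC and 454 ± 55.6 CPM (n = 3) in M gave a log2 difference of -0.31 (SE 0.079, edgeR adjusted p = 0.0481). The call stands close to the threshold: it remained in 1 of the 6 fits without 1 colony (without M colony 2, adjusted p = 0.00525), had adjusted p up to 0.247 in the others, and was at 0.0527 with another scaling (RLE size factors). Pfkp shares 748 exon bases, 5.58% of its total, with Pitrm1 on the opposite strand, which had 134 to 153 CPM in GC and 129 to 142 CPM in M colonies. Pfkl was at 700.2 ± 23.7 CPM (n = 3) in GC and 744.5 ± 43.8 CPM (n = 3) in M, and Pfkm at 62.5 ± 1.82 and 64.3 ± 2.56 CPM, both with overlapping groups and not called.

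Within the phosphofructokinase family, the Pfkp share of the level per length was 23.9%, 25.3% and 26.8% in GC and 20.1%, 22.0% and 19.6% in M colonies. The Pfkl share was 61.5% to 64.8% in GC and 66.7% to 68.6% in M colonies, and neither share overlapped between the groups. Shares of hexokinase, which traps glucose in the cell, did not overlap either. Hk1 was at 15.4% to 16.01% of the Hk1 and Hk2 level in GC and 13.1% to 14.0% in M colonies. Neither Hk1 (log2 -0.18, SE 0.077, adjusted p = 0.268) nor Hk2 (0.065, SE 0.068, adjusted p = 0.710) was called by edgeR. Shares of the glucose transporters, aldolases, enolases, monocarboxylate transporters, pyruvate dehydrogenase kinases, pyruvate carriers and Pfkfb enzymes overlapped between GC and M colonies. These shares are a description with no test. Those of Ldhb and Pfkp restate genes already called, and levels of 22.1% of all genes did not overlap between the sources.

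**Figure D2:**
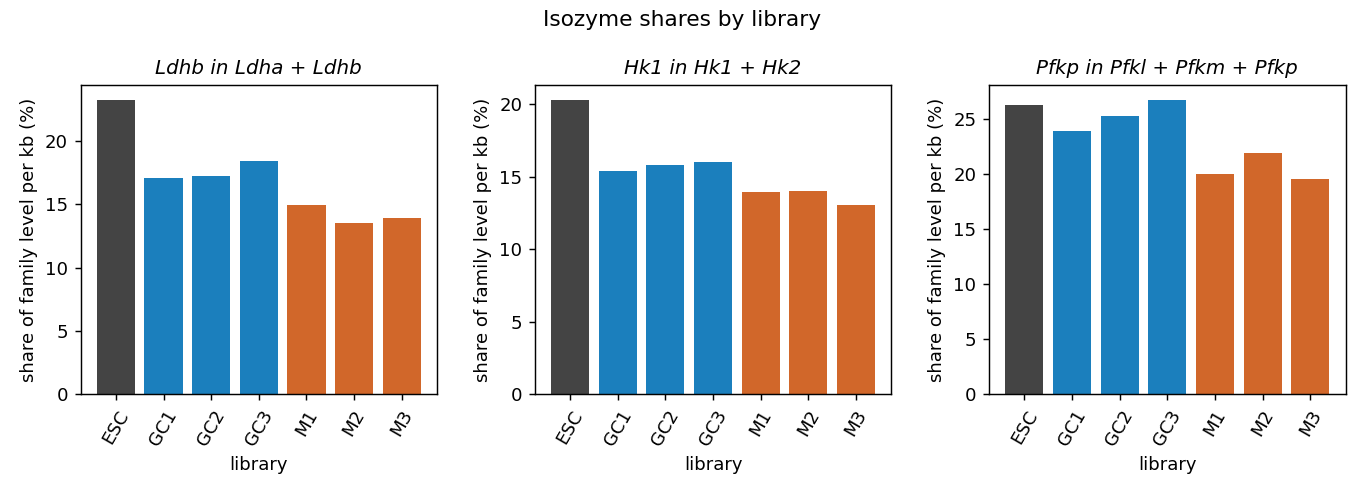
Share of 1 isozyme in the summed level per kb of its family (%), 1 bar per library, for Ldhb, Hk1 and Pfkp (dark ESC, blue GC colonies, orange M colonies). The 3 families shown are those whose shares did not overlap between the sources. The M bars lie below the GC bars: 13.5% to 14.9% against 17.1% to 18.4% for Ldhb, 13.1% to 14.0% against 15.4% to 16.01% for Hk1, and 19.6% to 22.0% against 23.9% to 26.8% for Pfkp.

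Pfkfb3 and Pfkfb4 make the sugar bisphosphate that activates phosphofructokinase. Pfkfb3 had 59.5, 60.5 and 62.5 CPM in the GC colonies, 67.9, 79.0 and 85.7 CPM in the M colonies and 65.0 CPM in the ESC library. All M colonies were above all GC colonies and the ESC library lay between the groups. The means were 60.8 ± 1.54 CPM (SD, n = 3) and 77.5 ± 8.98 CPM (n = 3), a log2 difference of 0.35 (SE 0.085, edgeR adjusted p = 0.0397). The call remained in 2 of the 6 fits without 1 colony and ended without GC colony 1 (adjusted p = 0.123), GC colony 2 (0.185), M colony 2 (0.0977) or M colony 3 (0.221); without M colonies 2 and 3 the log2 difference was 0.16 (adjusted p = 0.630). Pfkfb4 was at 3.41 to 4.79 CPM in GC and 3.82 to 5.17 CPM in M colonies, with overlapping groups.

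The Pfkp and Pfkfb3 windows are shown as the other members called between the sources, with the same capitals. They are chr13:6648722-6649021 (-) for Pfkp and, for 2 starts of Pfkfb3, chr2:11502041-11502340 (-) and chr2:11553880-11554179 (-).
Pfkp: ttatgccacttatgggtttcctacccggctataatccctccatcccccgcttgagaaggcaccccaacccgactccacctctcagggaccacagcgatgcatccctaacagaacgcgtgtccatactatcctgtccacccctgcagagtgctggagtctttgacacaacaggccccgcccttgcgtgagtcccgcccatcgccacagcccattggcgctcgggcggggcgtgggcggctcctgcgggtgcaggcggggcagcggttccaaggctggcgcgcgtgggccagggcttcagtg
Pfkfb3 first window: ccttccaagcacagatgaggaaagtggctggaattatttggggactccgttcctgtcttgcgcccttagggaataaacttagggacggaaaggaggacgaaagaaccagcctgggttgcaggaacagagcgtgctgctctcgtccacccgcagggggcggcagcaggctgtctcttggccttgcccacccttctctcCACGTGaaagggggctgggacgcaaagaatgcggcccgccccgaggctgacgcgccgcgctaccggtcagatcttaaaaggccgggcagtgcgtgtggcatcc
Pfkfb3 second window: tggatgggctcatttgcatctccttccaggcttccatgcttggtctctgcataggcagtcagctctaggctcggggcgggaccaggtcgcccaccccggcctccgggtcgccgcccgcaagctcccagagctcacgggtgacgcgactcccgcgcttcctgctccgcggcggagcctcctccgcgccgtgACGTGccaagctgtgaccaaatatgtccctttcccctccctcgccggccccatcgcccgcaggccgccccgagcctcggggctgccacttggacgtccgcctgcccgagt
The Pfkp window holds 0 matches of ACGTG on either strand, the first Pfkfb3 window holds 1, which is CACGTG, and the second holds 1. Counts per gene do not separate the Pfkfb3 starts.

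The monocarboxylate transporter Slc16a1, which moves lactate across the membrane, came next to the threshold. It had 234, 212 and 227 CPM in the GC colonies, 274, 239 and 300.1 CPM in the M colonies and 208 CPM in the ESC library. All M colonies were above all GC colonies. The log2 difference was 0.27 (SE 0.080, edgeR adjusted p = 0.0846), and it passed with DESeq2 (adjusted p = 0.0251), with no filter on low counts (0.00264) and in 1 of the 6 fits without 1 colony (0.0197 without M colony 2). In the other 5 the adjusted p reached 0.370, and without M colonies 2 and 3 it was 0.209 (log2 0.29). The related exporter Slc16a3 was at 291 ± 22.5 CPM (SD, n = 3) in GC and 301 ± 20.6 CPM (n = 3) in M. Slc2a3, a high-affinity glucose transporter, had 2340, 2308 and 2348 CPM in GC and 2312, 2663 and 2806 CPM in M colonies, where M colony 1 lay inside the GC range (adjusted p = 0.252, and 0.0255 without that colony). Without M colonies 2 and 3 its difference turned to -0.014 on the log2 scale. Slc2a1 was at 1184 ± 107 CPM (n = 3) in GC and 1218 ± 172.5 CPM (n = 3) in M.

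**Figure D3:**
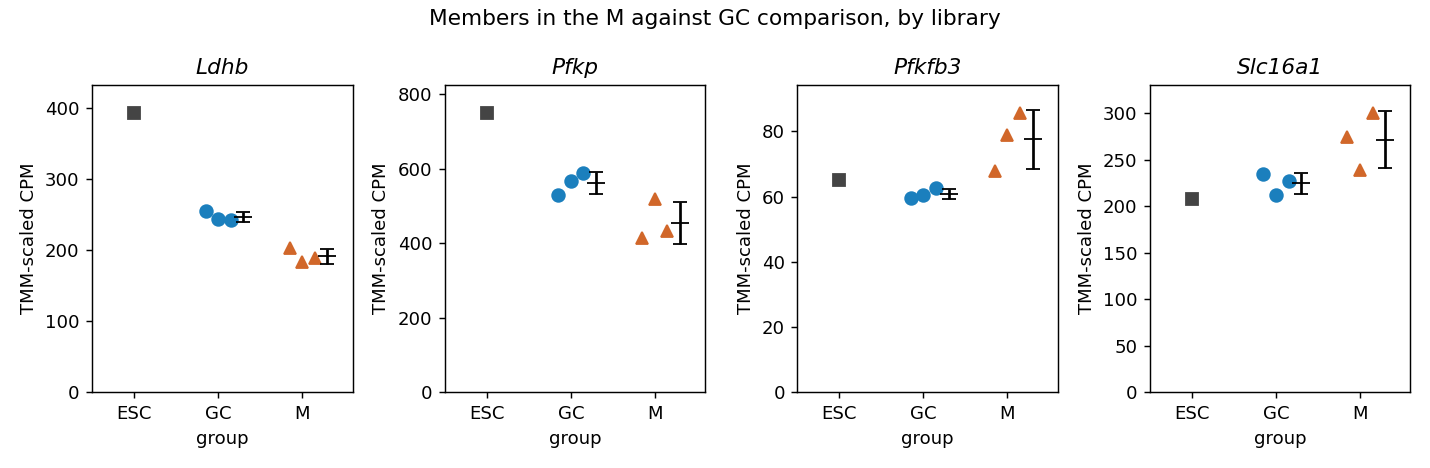
TMM-scaled CPM of Ldhb, Pfkp, Pfkfb3 and Slc16a1 in each library (1 point each: ESC, GC and M); the black bar beside 3 colonies is their mean and SD. The M points lie below the GC points for Ldhb (183 to 204 against 242 to 255) and Pfkp (413 to 517 against 529.6 to 589) and above them for Pfkfb3 and Slc16a1.

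The remaining members did not pass the test between M and GC colonies. Their log2 differences ran from -0.18 (Hk1) to 0.33 (Mpc1, at 2.47 to 3.58 CPM in GC and 3.11 to 4.56 CPM in M). The 7 members of lower glycolysis gave 0 calls by edgeR, by DESeq2 and by limma-voom, and 0 at an unadjusted p under 0.05. The 4 pentose phosphate members gave 0 calls by the 3 tools and 0 unadjusted: G6pdx, the entry enzyme, was at 68.5 ± 4.36 CPM (SD, n = 3) in GC and 70.1 ± 8.50 CPM (n = 3) in M, and transketolase Tkt at 502 ± 0.907 CPM and 504 ± 12.4 CPM. The 8 members for pyruvate entry also gave 0 calls by the 3 tools and 0 unadjusted, with Pdk1 at 269 ± 8.34 CPM in GC and 269 ± 8.89 CPM in M.

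Markers of other cells moved in part with the sources. The 12 primitive endoderm markers, genes of an extraembryonic lineage of the early embryo, summed to 3092 to 3772 CPM in GC colonies and to 5682, 3569 and 5871 CPM in M colonies. Of the 12, 3 were called higher in M by edgeR, 5 by DESeq2 and 11 at an unadjusted p under 0.05. M colony 2, whose sum lay within the GC range, was the nearest of the M colonies to GC in Pfkp and Slc16a1, the farthest in Ldhb and the middle one in Pfkfb3. The 16 fibroblast markers summed to 1569 to 1653 CPM in GC and 1514 to 1877 CPM in M colonies, with 0 of 14 tested called by edgeR, 1 by DESeq2 and 3 at an unadjusted p under 0.05. Pdgfra is on both the fibroblast and the primitive endoderm list. The part of the markers in the results for the members was not tested. In bulk RNA, fewer cells of a type and less RNA per cell cannot be told apart.

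Against the ESC library, members were mostly lower in the colonies. Of 36, 13 were called lower and 0 higher in the mean of GC and M colonies by edgeR's quasi-likelihood test over 20502 genes, where 7.56% of all genes were called lower and 8.76% higher. At an unadjusted p under 0.05 the members gave 17 lower and 1 higher, DESeq2 called 12 lower and 0 higher, and limma-voom 13 and 0. Among genes with a mean of 50 CPM or more, 15.9% were called lower and 8.8% higher. The median log2 difference, colonies minus ESC, was -0.18 over the members and 0.015 over all genes, and 28 of 36 were negative. The summed level of the members was 37733 CPM in the ESC library and 30370 to 32792 CPM in the 6 colonies. All 6 colonies were below the ESC library for 25 members and above it for 5 (Eno3, Slc16a1, Pdha1, G6pdx and Pgd), where 25.7% of all genes fell in each class. The test assumes that the lone ESC library varies like the colonies. Without M colonies 2 and 3, 11 members were called lower.

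Upper glycolysis held 5 of the 13: Hk1, Gpi1, Pfkl, Pfkp and Aldoa, of 9 members. Hk1 was at 206 CPM in the ESC library, 121, 127 and 142 CPM in GC and 108, 124 and 114 CPM in M colonies, with every colony below ESC. Its log2 difference was -0.75 (SE 0.095, edgeR adjusted p = 0.000145), whereas Hk2, the inducible hexokinase, was at 564 CPM in ESC and 465 to 534 CPM in the colonies and was not called (adjusted p = 0.192). Gpi1, which turns glucose 6-phosphate into fructose 6-phosphate, was at 1588 CPM in ESC and 1105 ± 41.4 CPM (SD, n = 6) in the colonies, a log2 difference of -0.52 (SE 0.060, edgeR adjusted p = 7.13e-05). Its colonies spanned 1048 to 1158 CPM, all below the ESC library. Pfkl was at 911 CPM in ESC and 673 to 783 CPM in the colonies (log2 -0.34, edgeR adjusted p = 0.00690), and Pfkp differed by -0.57 (SE 0.098, edgeR adjusted p = 0.00140). Aldoa, the main aldolase, was at 3579 CPM in ESC and 2590 to 3030 CPM in the colonies (log2 -0.33, SE 0.074, edgeR adjusted p = 0.00814). Pfkm, Aldoc, Tpi1 and Hk2 were not called.

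Lower glycolysis, the phase that yields ATP, also held 5: Gapdh, Pgk1, Eno1, Eno2 and Pkm, of 7 members. Gapdh, often used as a reference gene, was at 6922 CPM in ESC, 5670, 5516 and 5026 CPM in GC and 5311, 5225 and 5467 CPM in M colonies. All 6 colonies lay below the ESC library and the 2 sources overlapped, with a log2 difference to ESC of -0.37 (SE 0.062, edgeR adjusted p = 0.00116). Eno1, the main enolase, was at 4929 CPM in ESC and 3854 to 4363 CPM in the colonies (log2 -0.28, SE 0.061, edgeR adjusted p = 0.00622). Eno1b, a gene 99.5% identical to it over the aligned bases, was at 462 CPM in ESC and 339 to 402 CPM in the colonies, so reads may be split between the 2. Eno2 was at 20.7 CPM in ESC and 9.60 to 15.3 CPM in the colonies (log2 -0.76, SE 0.205, edgeR adjusted p = 0.0226). Pgk1, phosphoglycerate kinase, was at 2047 CPM in ESC and 1709 to 1844 CPM in the colonies (log2 -0.22, edgeR adjusted p = 0.0275, and 0.0787 without GC colony 2). Pkm, pyruvate kinase, was at 5057 CPM in ESC and 4303 to 4554 CPM in the colonies (log2 -0.20, edgeR adjusted p = 0.0231); the call ended with DESeq2 (0.0533) and when GC colony 2 (0.0581), M colony 3 (0.0516) or both M colonies 2 and 3 (0.0680) were left out. Counts per gene do not separate the M1 and M2 forms of Pkm. Pgam1 and Eno3 were not called.

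Of the 4 lactate members, Ldhb was called lower, with the largest difference of the members (log2 -0.85, SE 0.075, edgeR adjusted p = 1.21e-05). Set against the same ESC library, Ldhb differed by -0.67 (SE 0.083) in GC and by -1.04 (SE 0.082) in M colonies. Ldha was at 2741 CPM in ESC and 2264 to 2609 CPM in the colonies (log2 -0.16, adjusted p = 0.144), so both lactate dehydrogenase genes were lower in all 6 colonies and Ldhb alone was called; the difference between the 2 genes was not tested. Of the 8 members for pyruvate entry, Pdk2 and Pdk3 were called lower; both encode kinases that switch off pyruvate dehydrogenase. Pdk2 was at 19.6 CPM in ESC and 10.3 to 12.6 CPM in the colonies (log2 -0.76, SE 0.152, edgeR adjusted p = 0.00387), and Pdk3 at 64.3 and 46.8 to 53.9 CPM (log2 -0.36, edgeR adjusted p = 0.0274, 0.0652 when GC colony 2 and 0.0586 when M colonies 2 and 3 were left out). Pdk1, the most abundant of the 3 per length, was at 288 CPM in ESC and 262 to 279 CPM in the colonies and was not called (adjusted p = 0.426). The subunit genes of the complex itself, Pdha1, Pdhb and Dlat, were not called, with log2 differences of 0.14, -0.11 and 0.065.

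The transporters Slc2a1 and Slc2a3 and the regulators Pfkfb3 and Pfkfb4 gave 0 calls against ESC by edgeR, DESeq2 and limma-voom and 0 at an unadjusted p under 0.05. The 4 pentose phosphate members likewise gave 0 calls by the 3 tools, with 1 lower at an unadjusted p under 0.05. Tkt was at 515 CPM in ESC and 497 to 518 CPM in the colonies, G6pdx at 59.5 and 62.1 to 79.0 CPM, Pgd at 162 and 167 to 186 CPM, and Taldo1 at 270.3 and 228 to 256 CPM. The summed level of these 4 was 1007 CPM in ESC and 967 to 999.8 CPM in the colonies.

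Taken source by source against the same ESC library, GC colonies had 12 members lower and 0 higher by edgeR (DESeq2 12 and 0; 17 lower and 0 higher unadjusted; 5.51% of all genes called lower and 7.53% higher), and M colonies had 11 lower and 1 higher (7.37% and 8.84% of all genes). Among genes of 50 CPM or more, 12.5% were called lower and 6.97% higher in GC, and 15.3% and 9.72% in M. Without M colonies 2 and 3, M had 10 lower and 1 higher. The 1 higher in M was Slc16a1 (log2 0.38, SE 0.114, edgeR adjusted p = 0.0369; 0.0658 when M colony 1, 0.100 when M colony 3 and 0.0460 when both M colonies 2 and 3 were left out); in GC its log2 difference was 0.11 (adjusted p = 0.600). Pkm, Pgk1 and Eno2 lay near the threshold in both sources. Pkm was at -0.18 in GC (edgeR adjusted p = 0.0538, and 0.0364 with limma-voom) and at -0.21 in M (0.0233, and 0.0527 with DESeq2 or 0.108 without M colonies 2 and 3). Pgk1 was at -0.24 in GC (edgeR adjusted p = 0.0267, and 0.101 without GC colony 2) and at -0.19 in M (0.0667, and 0.0495 with limma-voom). Eno2 was at -0.86 in GC (edgeR adjusted p = 0.0217, and 0.0706 without GC colony 2) and at -0.66 in M (0.0642, but 0.0410 with DESeq2, 0.0471 with limma-voom and 0.00917 without M colonies 2 and 3). The calls of Pfkl, Pkm and Pdk3 in M ended without M colony 1 (edgeR adjusted p = 0.0527, 0.0505 and 0.0773), and that of Pdk3 also without M colony 2 (0.102) or 3 (0.0699). Those of Pfkl and Pkm in M also ended when M colony 3 was left out (0.0531 and 0.0678). In GC, the call of Pdk3 ended without GC colony 2 (0.129) or 3 (0.0514), and that of Pfkp without GC colony 1 (0.0510) or 2 (0.0561). That of Eno1 in GC ended without GC colony 2 (edgeR adjusted p = 0.0743), and that of Pdk3 in M with limma-voom (adjusted p = 0.0542). By the test of the difference between M and GC colonies, Slc16a1 had an edgeR adjusted p of 0.0846, Pkm 0.794, Pgk1 0.697 and Eno2 0.634.

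**Figure D4:**
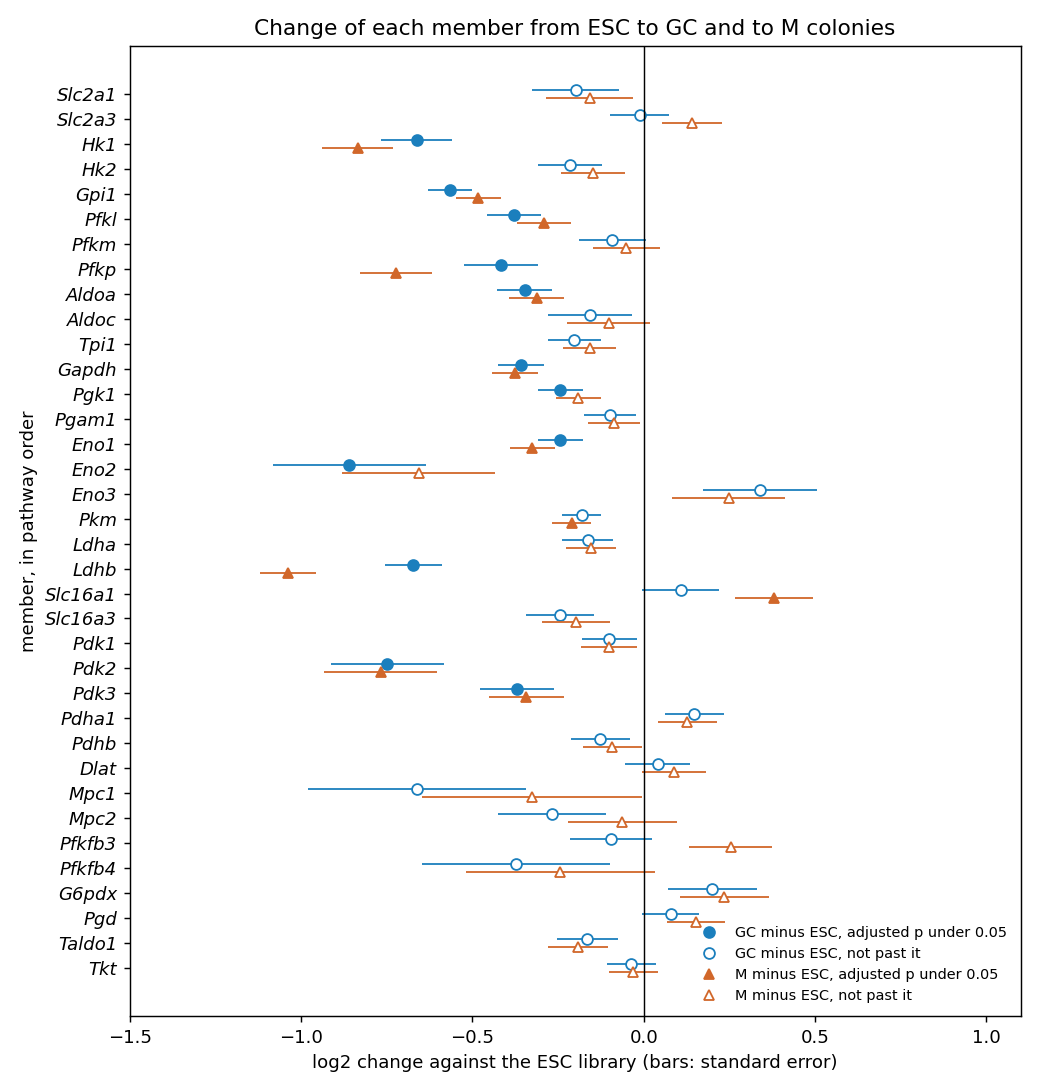
Log2 change of each member from the ESC library to GC colonies (circles) and to M colonies (triangles), in pathway order; bars are standard errors and filled symbols have an edgeR adjusted p under 0.05. Filled symbols lie left of 0 for glycolytic members such as Ldhb (-0.67 in GC, -1.04 in M); Slc16a1 in M colonies is the filled symbol on the right.

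The ESC library and the colonies also differed in their marker genes. All 12 primitive endoderm markers were called higher in the colonies (796 CPM summed in ESC, 3092 to 5871 CPM in the colonies), as were 9 of 14 tested fibroblast markers (976 CPM in ESC, 1514 to 1877 CPM in the colonies), and 10 of 12 pluripotency markers were called lower. Pdgfra, on both the endoderm and the fibroblast list, counts in both results. The part of the markers in the members' differences was not tested. Genes of chromosome 8 had a median log2 difference to ESC of -0.29, and no member lies there. The 4 X-linked members are Pgk1, Pdk3, Pdha1 and G6pdx, on a chromosome whose genes had a median of 0.093.

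Among sister colonies of 1 source, members deviated together in part. GC colony 3 was the lowest of its 3 sisters in 20 of 36 members, where it was lowest in 39.2% and highest in 38.1% of all genes. GC colony 1 was the highest in 20 members, for which the share over all genes was not counted. M colony 1 was the lowest of its sisters in 23 of 36 members, against 35.5% of all genes. In GC colony 3, Gapdh, Aldoa, Eno1, Ldha and Slc2a1 were each at their lowest among the GC colonies, while Hk1, Hk2 and Pfkp were at their highest. The heat map by library shows these blocks. Pseudogene copies of the members, 220 in number, of which 171 resemble Gapdh, summed to 180 CPM in GC colony 3 and to 275 to 354 CPM in the other libraries, which is 0.776% and 1.14% to 1.28% of their parent genes. Among these sums that of Mpc1 was the largest beside its parent, at 29.9% to 62.9% of its own level, so its values are uncertain. Next came Pdhb, at 5.31% to 5.99%. Protein-coding copies such as Eno1b are not in these sums.

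**Figure D5:**
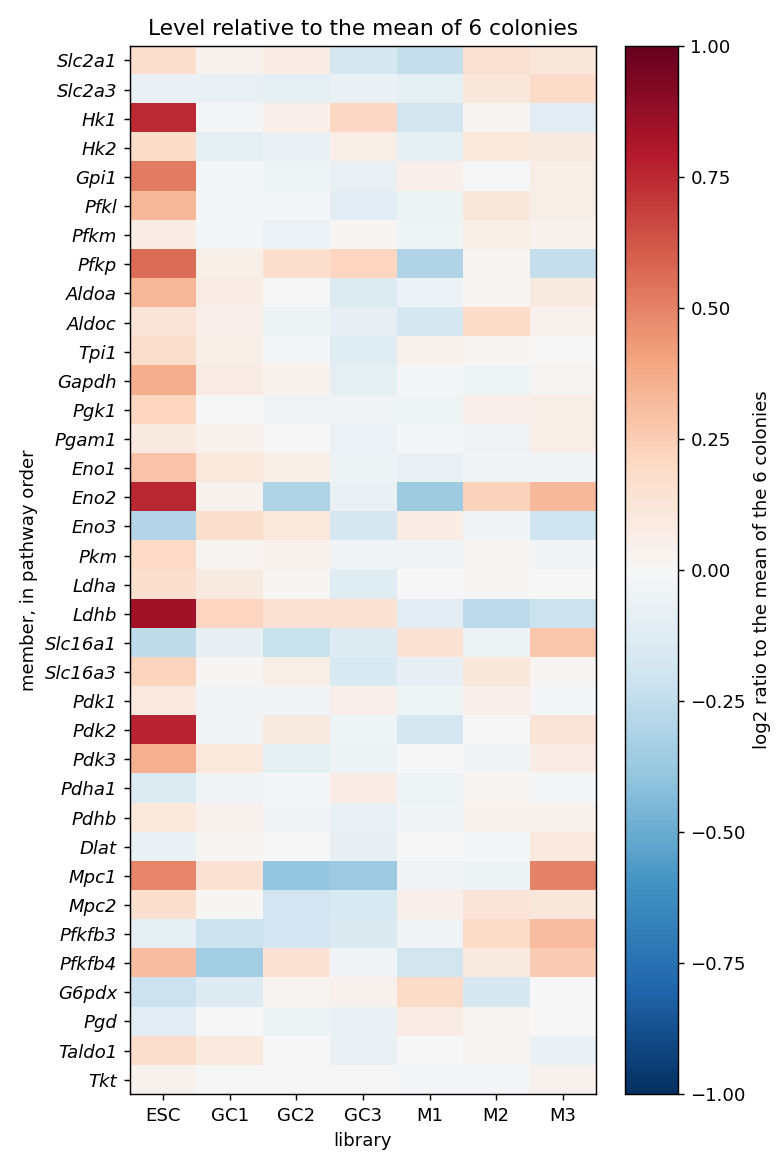
Log2 ratio of each member to its mean over the 6 colonies (color), with members in pathway order as rows and the 7 libraries as columns. The ESC column is mostly red, with Ldhb at 394 CPM against 183 to 255 CPM in the colonies, and the columns of GC colony 3 and M colony 1 hold many of the lowest values among sisters.

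Genes around the members were counted from lists. Of 81 other genes of the same pathways, 73 were tested between the sources, and 2 were called higher and 1 lower in M, with a median log2 difference of -0.020. Rpe, which makes xylulose 5-phosphate in the pentose phosphate pathway, was at 43.5 ± 1.07 CPM (SD, n = 3) in GC and 63.4 ± 4.11 CPM (n = 3) in M (log2 0.54, SE 0.074, edgeR adjusted p = 0.00142). Prps1, which turns ribose 5-phosphate into the precursor of nucleotides, was at 240 ± 6.02 CPM in GC and 180.5 ± 2.63 CPM in M (log2 -0.41, SE 0.056, edgeR adjusted p = 0.00142). Embigin (Emb), a partner protein of monocarboxylate transporters, was at 135 ± 3.91 and 179 ± 18.9 CPM (log2 0.41, SE 0.077, edgeR adjusted p = 0.0104). For all 3 the M and GC colonies did not overlap. Without M colonies 2 and 3, which leaves 1 M colony, the log2 differences were 0.64 for Rpe, -0.42 for Prps1 and 0.50 for Emb. Against ESC, 6 of 75 were called higher and 6 lower, with Hkdc1, a hexokinase-like gene, showing the largest difference (3.08 CPM in ESC, 20.1 to 42.8 CPM in the colonies, log2 3.23). The others higher were Eno4 (1.74), Sord (1.25), Prps2 (0.87), Me1 (0.71) and Slc37a4 (0.49), and those lower were Pgls (-0.56), Got1 (-0.54), Pcx (-0.51), Pck2 (-0.44), Prps1 (-0.41) and Got2 (-0.31); Pgls and Got2 lie on chromosome 8.

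Of 16 glycogen genes, edgeR called 0 between the sources, with 4 at an unadjusted p under 0.05 and 1 called by DESeq2; against ESC, 3 were lower, the phosphorylases Pygm (-1.02) and Pygl (-0.68) and the synthase Gys1 (-0.26). Of 24 hypoxia-responsive genes outside glycolysis, 1 was higher in M than in GC: Egln1, the oxygen-sensing prolyl hydroxylase, at 122 ± 7.72 CPM (SD, n = 3) and 149.5 ± 4.42 CPM (n = 3; log2 0.29, edgeR adjusted p = 0.0274, and 0.253 without M colonies 2 and 3). Against ESC, 7 of them were higher, led by the collagen-modifying enzymes Plod2 (1.16) and P4ha2 (0.88), and 5 lower, led by Mif (-0.52) and Ak4 (-0.46). Egln1, which lies on chromosome 8, was also among those called lower against ESC (-0.41). Of 22 regulators of glycolysis tested, Lin28b, an RNA-binding protein, was higher in M (33.9 ± 1.20 against 44.4 ± 1.12 CPM; log2 0.39, edgeR adjusted p = 0.0138, and 0.158 without M colonies 2 and 3). Against ESC, regulators called higher included Myc (2.04), Lin28a (0.75) and Epas1 (0.62), and 4 were called lower, Esrrb (-0.72), Ucp2 (-0.50), Trp53 (-0.50) and Txnip (-0.47). Myc was at 7.14 CPM in ESC, 22.0 to 27.7 CPM in GC and 31.9 to 35.3 CPM in M colonies (M against GC log2 0.38, edgeR adjusted p = 0.0671). Counts per gene do not show which allele or copy of Myc the RNA came from.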

How the data were processed

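The authors deposited raw counts for each Ensembl gene, which are whole numbers and not normalized. The tools and builds named are, per the submitters' processing notes, STAR 2.7.10a, featureCounts 2.0.6, DESeq2, mm10 and GRCm38. The labels disagree on whether libraries kept strand. The strand setting of featureCounts was not given in the sources used, so overlapping genes on opposite strands may share counts. G6pdx shares 13.6% of its exon bases with Ikbkg, which had 26.4 CPM in ESC and 27.55 to 32.6 CPM in the colonies. Pdha1 shares 16.1% with Map3k15 (6.67 to 12.2 CPM), also on the opposite strand. On the same strand, Pkm shares 15.3% with Gm49759 (58.4 to 92.7 CPM). Among counts of 1 to 49, 68.5% to 72.2% were even, against 49.5% to 50.9% at 1000 or more, so counts may overstate fragments.

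Gene names and exon lengths came from GENCODE M21, which matched 54809 of 54838 genes. Counts were fitted with edgeR 4.0.16 in R 4.3.3 (quasi-likelihood test, TMM scaling, filterByExpr, Benjamini-Hochberg adjustment over all tested genes, threshold 0.05, two-sided), checked first on simulated counts. M against GC used the 6 colonies and comparisons with ESC all 7 libraries. A printed SE is that of the log2 difference. CPM are TMM-scaled over the 7 libraries; level per length is CPM per kb of merged exons. Copies are genes with at least 90% identity over 200 bases. DESeq2 1.42.0, limma 3.58.1 (voom), other scalings, filters and left-out colonies were alternatives. The members and lists were chosen with earlier results of these data known. Called members are given by library with full statistics, the others by range; list genes named are those called with the largest change, up to 8 per list, and Myc was added after its values were seen. One gene of the regulator list is not reported here.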

Additional observations from a re-analysis of the deposited data

How the results depend on the processing

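Between M and GC colonies, the members called higher (1) became 2 with DESeq2, 2 with no filter on low counts, 0 without M colonies 2 and 3, and 0 to 2 when 1 colony was left out; those called lower (2) became 1 with RLE size factors, 1 without M colonies 2 and 3, and 1 to 2 when 1 colony was left out. Against ESC, leaving out 1 colony gave 10 to 13 members lower for all colonies, 7 (without GC colony 2) to 12 for GC, and 8 (without M colony 1) to 10 lower and 0 to 2 higher for M. No member's call changed sign. The number of all genes called between the sources (308 higher, 413 lower) became 541 and 569 with DESeq2, 656 and 662 with no filter, 161 and 212 without M colonies 2 and 3, 88 and 156 without GC colony 2, 92 and 178 without M colony 3, and 160 and 252 without GC colony 1. For all colonies against ESC, 1795 genes higher and 1549 lower became 1194 and 1584 with limma-voom.

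Differences in isozyme share, M minus GC in percentage points, depended in size on how length was handled, and those listed here kept their sign. With merged exons, Hk1 and Hk2 gave -2.073 and 2.073, Ldha and Ldhb 3.470 and -3.470, and Pfkl and Pfkp 4.409 and -4.805. With the longest transcript, Hk1 and Hk2 gave -3.025 and 3.025 and Ldha and Ldhb 2.559 and -2.559; with raw counts, Hk1 and Hk2 gave -2.623 and 2.623, Pfkl and Pfkp 6.156 and -6.538, and Ldha and Ldhb 1.959 and -1.959.

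Colonies of the sources share numbers, but the labels do not say that a number pairs them, and same-numbered colonies correlated in their deviations at 0.0729, 0.075 and 0.164, each colony best with its own number. With the replicate block, 2 members were called higher (Slc16a1 added, adjusted p = 0.0257) and 2 lower, and 451 genes higher and 512 lower in all. The ESC comparisons rest on 1 ESC library, and 3 colonies a source limit every test.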
